A study of Mus musculus with 4 samples.

Results

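The RNAs described here come from 3540 regions of the mouse genome that the expression array names by their position alone, without a gene symbol, and they were measured in the brain of newborn mice whose mothers had received titanium dioxide nanoparticles (TiO2-NP) during pregnancy. A member is a probe of the array, not a control, whose name is a chromosome with a start and an end followed by the letter F or R, here called forward and reverse strand. This rule gave 4607 region strands with 16181 probes, which were 29.1% of the 55681 probes on the array, among 37881 named targets in all. Another 13 probes of 3 regions carried coordinates without a strand letter and were left out. The coordinates are those of build mm9, as the scanner files state. The sources used here do not say how the regions were chosen or which way F and R run against the reference, and whether a region lies between genes was not tested, because no annotation of mm9 was used here.

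Long intergenic noncoding RNAs are transcripts made from DNA between protein-coding genes and are not translated into a long protein. Many are made at low levels and in few tissues, and the brain is among the tissues that make many of them. Some act on chromatin near the place where they are transcribed, whereas for most no role is known. Only one strand of a locus serves as template for a given transcript, so a probe on each strand can show which one is transcribed, and opposite strands can also carry separate transcripts.

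In all, 4 pools of whole-brain RNA from C57BL/6J offspring at day 1 after birth were hybridised, one to each array. The Sham arrays held offspring of 5 dams given 25 µL of vehicle into the trachea, and the TiO2-H arrays held offspring of 6 dams given 100 µg TiO2-NP in that volume. Each pool took 2 offspring per dam, and one pool per exposure is labelled male and one female. The day of gestation at dosing is 10.5 in the protocol and 14 in the design text. There were thus 2 pools per exposure, so the spread between arrays is that between pools of differently labelled sex and not between litters, and its precision is limited by the number of arrays.

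The arrays resembled newborn brain: the neuronal markers Tubb3, Stmn2, Dcx, Snap25, Map2 and Gap43 and the glial markers Fabp7, Slc1a3, Sox2, Nes and Vim were well above background on all 4 arrays, whereas Alb, the main protein of liver, was so on none. Hba-a1 and Alas2, which mark red blood cells, Apoa2 of liver and Myh3 and Acta1 of muscle were also above background on all 4. The sex-linked RNAs went against the labels of the TiO2-H arrays. Xist, made from the inactive X chromosome, had signals of 17.9 and 276 on the Sham arrays labelled male and female and 347 and 5.36 on the TiO2-H arrays labelled male and female. The Y-linked Eif2s3y had 3519 and 420 on the same Sham arrays and 6.40 and 4345 on the TiO2-H arrays. The Sham array labelled female thus held Xist and also Y-linked RNA, with 143 for the Y-linked Ddx3y, and whether pools were mixed was not tested. Exposure was therefore compared over both arrays of each group, and values by sex are given only as labelled. All arrays lay on 1 slide, with the Sham arrays in row 1 and the TiO2-H arrays in row 2, so that row and exposure cannot be told apart.

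The regions were 62 to 7128487 bases long, with a median of 7316 and quartiles of 787 and 21816. Both strands had probes in 1067 regions, the forward strand alone in 1251 and the reverse strand alone in 1222. A strand had 1 to 10 probes, most often 3 (1809 strands) or 5 (973 strands), and 690 strands rested on a single probe. The regions lay on chromosomes 1 to 19 and X, with the most on chromosome 1 (269 regions). They were not separate loci throughout, since 2101 of them (59.4%) overlapped another listed region by at least 1 base. The longest, chr7:39351858-46480344 on the reverse strand, had 1 probe, which no array detected.

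A probe counts as detected where the scanner software calls it well above the local background. Each strand was represented by its probe with the highest mean signal, called the brightest probe. By this measure 58.3% and 57.7% of the strands were detected on the Sham arrays labelled male and female and 62.5% and 65.3% on the TiO2-H arrays in the same order. Of the single probes of the regions, 33.2% to 39.8% were detected, against 63.9% to 68.3% of all other probes. On each array a single region probe was thus detected less often than one of the other probes, and the strand, which is judged by the best of its probes, came closer to them.

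**Figure D1:**
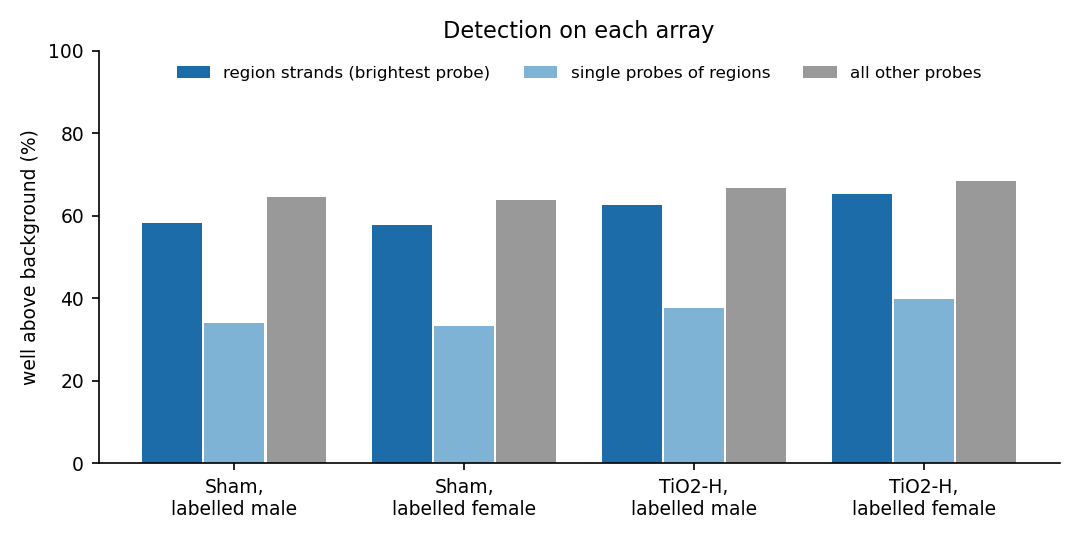
Percent of features well above background on each of the 4 arrays, for the 4607 region strands (by their brightest probe), the 16181 single probes of regions and the 39500 other probes. Single region probes were detected least often on every array, and in all 3 classes both TiO2-H arrays lay above both Sham arrays.

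Most strands were detected either everywhere or nowhere. All 4 arrays detected 2469 strands and none detected 1300, while 477, 202 and 159 were detected on 1, 2 and 3 arrays. At least 2 arrays detected 2830 strands (61.4%), and these were taken as tested for exposure. The share was 61.6% for forward and 61.2% for reverse strands, so neither letter was favoured. It ranged from 41.2% of strands with 1 probe to 91.2% of strands with 10, whereas single probes ranged only from 32.2% to 44.9% between strands of different probe number. Detection also rose with the length of the region, from 47.7% up to 1 kb to 70.0% over 50 kb, together with the mean number of probes per strand, from 2.52 to 4.36. Of 2546 detected strands with several probes, 1052 (41.3%) were detected by the brightest probe and by no other, and only 552 of 3917 strands with several probes had every one of them detected.

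The strands with the highest signals hardly differed between the exposures. The forward strand of chr14:78924115-78938125 gave 138960 (labelled male) and 126700 (labelled female) as processed signal in Sham and 144430 and 137860 in TiO2-H. Its log2 ratio of TiO2-H over Sham was -0.03 ± 0.06 (SE). The reverse strand of chr12:73838608-73862621, the forward strands of chr6:83368261-83407280 and chr6:116092274-116144199 and the reverse strand of chr11:22681800-22707775 followed, with log2 ratios from -0.12 to 0.07. All 5 ratios were within 2 SE of 0. Not every probe of these strands was bright: the next brightest of the 7 probes on the chromosome 14 strand read 69.2 to 90.6, and that of the 5 on the chromosome 12 strand 426 to 509. Signals of different probes are not on one scale, so these are given side by side only.

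Where both strands of a region carried probes, detection on both was the most frequent outcome, and forward and reverse strands were detected alone about equally often. Of the 1067 such regions, 540 (50.6%) had both strands detected on at least 2 arrays, 202 the forward strand only, 200 the reverse strand only and 125 neither. In 123 regions the forward strand was detected on all 4 arrays and the reverse strand on none, and in another 123 the reverse strand on all 4 and the forward strand on none. The balance held among the 596 regions with as many probes on one strand as on the other, where 274 had both, 117 forward only, 120 reverse only and 85 neither. Strands of such regions were detected more often than strands of regions with probes on one side only (69.4% against 54.5%), but their single probes were not (36.3% against 36.1%).

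**Figure D2:**
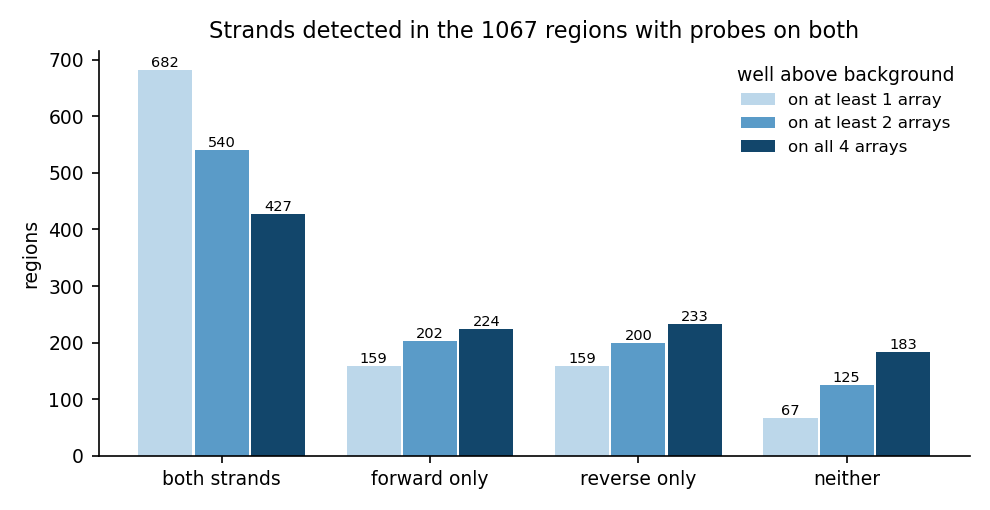
Number of the 1067 regions with probes on both strands in which both, one or neither strand was well above background, under 3 rules for the number of arrays needed. Forward-only and reverse-only regions were nearly equal in number under each rule, and regions with both strands detected were the most frequent class.

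The 5 brightest strands whose partner was not detected show how far apart the calls for opposite strands could be. On chr3:87757295-87774970 the forward strand read 54888, 52677, 51401 and 53305 on the Sham arrays (labelled male, then female) and the TiO2-H arrays (in like order, which is used from here on), and all 5 of its probes were detected on all 4 arrays. The brightest probe of its reverse strand read 37.1, 16.5, 23.8 and 18.3 and was detected on none, although a dimmer probe was detected on 2 arrays. A shorter entry within the region on the reverse strand, chr3:87764926-87769766, was detected on all 4 arrays, at 618, 572, 642 and 609. The reverse strand of this place was thus not without signal. On chr17:86560289-86565864 the reverse strand read 12104, 10591, 11915 and 11399, and none of the 5 forward probes was detected on any array. The reverse strands of chr7:50509139-50526856, chr2:167404245-167414345 and chr3:100363012-100369462 were likewise detected on all 4 arrays, at signals of 7084 to 15342, while every probe of their forward strands was undetected throughout. The log2 ratios of these 5 detected strands were small, from -0.16 to 0.01.

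More strands were detected on the TiO2-H arrays alone than on the Sham arrays alone. Both TiO2-H arrays and no Sham array detected 135 strands (2.93%), and the reverse held for 9 (0.195%). Over all probes of the array the same rules were met by 1.79% and 0.0862%. The lowest signal called well above background was 29.5 and 23.3 on the TiO2-H arrays and 30.4 and 31.7 on the Sham arrays, so weaker signals passed on the former. With a single limit for all 4 arrays, a rule added after the data were seen, 37 strands (0.803%) stood above it on the TiO2-H arrays alone and 22 (0.478%) on the Sham arrays alone, against 0.489% and 0.175% of the other probes. The excess on the TiO2-H side was thus smaller at a common limit.

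Exposure was compared as the mean log2 ratio of the TiO2-H arrays over the Sham arrays, after each array was scaled to its 75th percentile, and the study's thresholds of 1.5-fold and 0.67-fold were used. In bulk RNA, fewer cells of a type cannot be told apart from less RNA per cell. Of the 2830 tested strands, 103 (3.64%) were at least 1.5-fold higher and 73 (2.58%) at or below 0.67-fold, against 2.31% and 1.43% of all 31923 probes tested. The median ratio was 0.00, the quartiles were -0.10 and 0.16, and 93.8% of the strands lay between the thresholds. Among the 2469 strands detected on all 4 arrays, 41 (1.66%) were higher and 37 (1.5%) lower, against 0.836% and 0.836% of all probes detected on all 4. The shares past a threshold were thus above those of all probes in each direction. The brightest probe of a strand was chosen over the same arrays that give the ratio, whereas the array's probes as a whole were not so chosen. What this choice adds to the shares was not tested, and counts for the mean of a strand's probes are given below. Of the 103 strands called higher, 47 were not detected on either array of one exposure, so that their ratio is not a measured fold, and 11 of these 47 had a bound of at least 1.5-fold. Of the 73 called lower, 9 were of this kind, and all 9 had such a bound.

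The shares past a threshold fell with signal, among the strands and among the other probes. When the tested strands were split by signal into 4 classes of equal size, 10.3% of the dimmest were at least 1.5-fold higher, against 11.2% of the other probes of the same signal range. In the next class the shares were 3.96% and 2.21%, in the third 0.283% and 0.39%, and in the brightest 0.0% and 0.137%. For the lower threshold the shares fell from 5.79% of strands and 4.44% of other probes in the dimmest class to 0.282% and 0.0216% in the brightest. Within a signal class the strands therefore had a larger share than the other probes for higher values in the second class alone, and for lower values in all 4 classes. The differences within classes were not tested. Strands and other probes detected in a single exposure alone could also pass the filter. Of the strands, 47 of the 103 called higher and 9 of the 73 called lower were not detected on either array of one exposure. The classes were not redrawn without them.

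**Figure D3:**
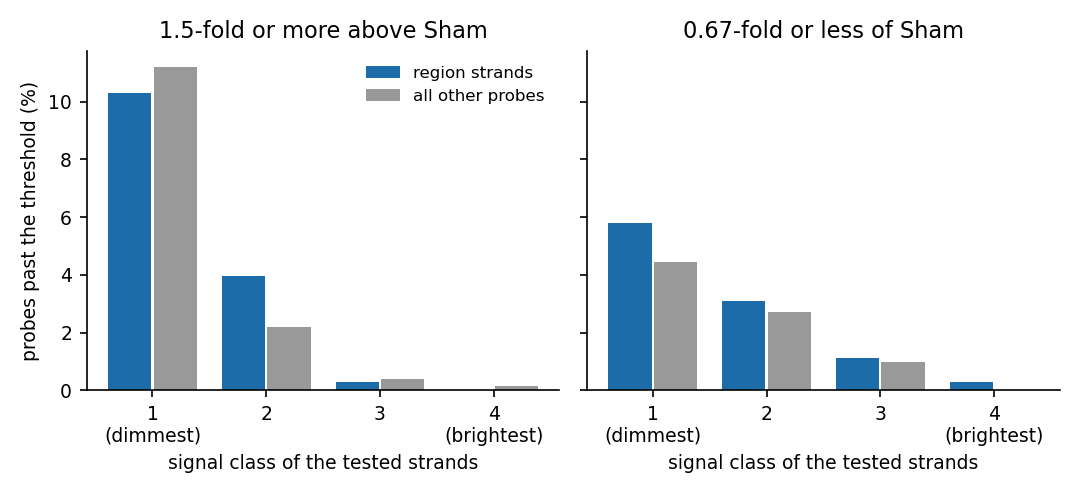
Percent of region strands and of all other probes past the fold thresholds in 4 signal classes of the 2830 tested strands, with the other probes sorted into the same signal ranges. Shares fell with signal among strands and other probes, from 10.3% of strands higher in the dimmest class to 0.0% in the brightest. Probes detected in a single exposure alone are included.

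Strands past a threshold were also found within each exposure. Sham female over Sham male, as labelled, gave 110 strands at least 1.5-fold higher and 117 at or below 0.67-fold among the same 2830, and TiO2-H female over TiO2-H male gave 48 and 118. These are ratios of single arrays, whereas the exposure ratio averages over 2 pairs. Taken pair by pair, TiO2-H over Sham gave 187 higher and 109 lower on the arrays labelled male and 105 and 92 on those labelled female. The pair labelled male thus had more higher strands than either comparison within an exposure, and neither pair had more lower strands than they did. Both pairs were past the threshold in 27 strands upward and 19 downward. Over strands detected on all 4 arrays the robust SD of the log2 difference was 0.137 between the Sham arrays and 0.146 between the TiO2-H arrays, and it was 0.178 and 0.184 between exposures in the male and female pairs. For the other probes these values were 0.0954, 0.0881, 0.145 and 0.146. The region strands thus had a wider spread than the other probes in every pair, and the spread between exposures was wider than within them. Strands and other probes were not compared at equal signal here, and only the strands were represented by a probe chosen as the brightest on these arrays.

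Both TiO2-H arrays lay above both Sham arrays in 694 tested strands (24.5%) and below both in 542 (19.2%), against 29.4% and 24.6% of all probes tested. Among strands on all 4 arrays the counts were 561 (22.7%) and 512 (20.7%), against 28.5% and 26.1% of all probes on all 4. Separation of the exposures was therefore less frequent among the strands than over the array. No strand, and no other probe, passed an adjusted p of 0.05 in limma, and the lowest adjusted p was 0.091. Before adjustment, 425 strands had p under 0.05 (15.0%, against 16.6% of all probes), 292 higher (10.9% of all probes were so) and 133 lower (5.7% of all probes). With variances that depend on signal and resist outliers, limma's trend and robust options, 61 strands (2.16%, against 2.36% of all probes) had an adjusted p under 0.05, 45 of them higher, and 12 of the 61 were also past a fold threshold. The 61 included strands that passed the filter through a single exposure alone, among them chr11:58136882-58143829 forward and chr18:5162836-5165729 reverse. For such strands the p does not measure a spread between the pools below detection, and their number is not given here. An exact permutation test of 2 against 2 arrays cannot give a two-sided p below 0.333.

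One strand had the lowest p among the tested strands and was among the most one-sided in detection. The brightest probe of the forward strand of chr11:58136882-58143829, a region of 6948 bases, read 7.61 and 7.88 on the Sham arrays, neither of which detected it, and 249 and 208 on the TiO2-H arrays. The exposures did not overlap, and the TiO2-H signal was at least 6.75-fold higher than the Sham arrays' limit of detection (limma adjusted p = 0.091, or among the 61 under the trend and robust options). The strand passed the filter for testing through the TiO2-H arrays alone. Its Sham values lay below detection, so its p does not measure a spread between Sham pools. Neither that p nor the lack of overlap is support beyond the difference in detection. Another background correction (normexp) was run with an offset of 50 added to every signal, which draws the ratios of dim probes toward 0. With it the log2 ratio was 1.70. For the mean of the strand's probes, without normexp, the ratio was 2.20. Both were below that bound. The other forward probe was not detected on any array, with signals of 5.97 to 8.10. The brightest probe of the reverse strand read 42.4, 45.2, 57.7 and 74.3, a log2 ratio of 0.47 ± 0.15 (SE), so that the TiO2-H arrays were higher there too but by less than 1.5-fold.

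The forward strand of chr18:57101890-57102541, 652 bases long, had the largest decrease among the strands that were detected on all 4 arrays and separated by exposure. It read 198 and 159 on the Sham arrays and 48.8 and 41.6 on the TiO2-H arrays, 4.26-fold lower with a log2 ratio of -2.09 ± 0.15 (SE) (limma adjusted p = 0.261, or among the 61 under the trend and robust options). Its signal was close to that of the dimmest detected probes in the exposed brains. The other 2 probes of this strand were not detected on any array, so the decrease rested on a single probe. On the reverse strand of chr18:5162836-5165729 the brightest probe read 81.6 and 90.2 in Sham and 26.4 and 22.3 in TiO2-H, where it was not well above background, and was at least 3.54-fold lower. The reverse strand of a longer listed region over the same place, chr18:5119300-5181600, read 80.4, 110, 112 and 122, without a decrease. The other strands with the lowest p were dim, and they too passed the filter through a single exposure alone. On chr9:41422319-41425855 the forward strand read 8.68 and 7.56 in Sham, not well above background, and 34.1 and 32.8 in TiO2-H, which did not exceed the detection limit of the Sham arrays after scaling. That of chr2:48826955-48827592 read 34.6 and 34.1 in Sham, where neither array detected it, against 56.4 and 57.3. Its log2 ratio of 0.61 was -0.01 with normexp and its offset. The other 2 probes of this strand, each detected on 2 arrays, had log2 ratios of 0.64 and 1.31. Overlapping forward entries, chr2:48807211-48843911 and chr2:48805604-48974396, had 0.77 and -0.23.

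Among strands detected on all 4 arrays, 6 were past 1.5-fold and 6 past 0.67-fold in both pairs of arrays, and these were picked out after their values were seen. On chr18:5951953-5952386 the forward strand, with 1 probe, read 88.1 and 81.2 in Sham and 190 and 176 in TiO2-H, a log2 ratio of 1.00 ± 0.07 (SE). On chr9:58197113-58200614 the forward strand read 79.4 and 88.5 against 174 and 172, 1.90-fold higher. Its other probes, detected on 1 array and on none, had log2 ratios of -0.81 and -0.02. The forward strand of chr2:67411703-67412293 read 130 and 123 against 210 and 222, 1.58-fold higher, and its other probes had log2 ratios of 0.23 and 0.22. In these 3 strands the arrays of one exposure lay close together, and all 3 were among the 61. The forward strands of chr17:79042382-79052046 and chr16:91198576-91199149 and the reverse strand of chr7:140016236-140016772 were 1.92-, 1.56- and 1.62-fold higher, at signals of 38.5 to 100. On the last, another probe detected on all 4 arrays had a log2 ratio of 0.00, and an overlapping entry on the same strand, chr7:140011140-140018815, read 80.2, 79.6, 81.3 and 85.8, so that neither showed the increase.

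On the lower side, beside the chromosome 18 strand given above, the forward strand of chr2:33496712-33501183 read 89.2 and 113 in Sham against 52.9 and 63.1 in TiO2-H, 1.88-fold lower. An overlapping listed region, chr2:33500594-33501874 on the same strand, read 998 and 992 against 1258 and 1200, a log2 ratio of 0.19, so the ratios of the overlapping entries had opposite signs. On chr6:12062275-12075800 the forward strand read 60.3 and 56.6 against 41.5 and 39.6, 1.56-fold lower, while its reverse strand read 524 and 465 against 530 and 484 (log2 ratio -0.08). The forward strand of chr4:55981894-55986587 and the reverse strands of chr1:175653557-175671940 and chr8:124569775-124639500 were 2.02-, 1.63- and 1.62-fold lower. The forward strand of the last region had a log2 ratio of 0.10. Over the chromosome 1 region, the reverse entry chr1:175660642-175671878 had a log2 ratio of 0.04, without a decrease. The reverse entry chr1:175654606-175672031 had one of -0.42, with signals of 104, 48.1, 49.3 and 66.8. These decreases were of dim probes, and where the opposite strand of the same region was measured it was not past the threshold. Over the chromosome 1 region the forward entry chr1:175654606-175672031 read 7.75, 447, 7.49 and 5.90. It was detected on 1 array, and its log2 ratio of -3.26 came from the Sham array labelled female alone.

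The largest ratios often came from a single array. Those of the forward strands of chr18:65738804-65739801 and chr2:176610409-176612864 and of the reverse strand of chr17:33372482-33375285 were 1.00 to 1.08 on the log2 scale, but with SEs of 0.48 to 0.69. On chr18:65738804-65739801 the signals were 46.1 and 43.1 against 193 and 54.4, so that the TiO2-H array labelled male stood apart. Among the lower strands, the reverse strand of chr10:81325975-81352275 read 417 and 37.2 against 38.8 and 39.2, and that of chr3:51890691-51891781 read 52.1 and 415 against 47.5 and 44.5. In each the decrease came from 1 Sham array. One array was at least 4-fold above the other 3 in 27 of the 73 strands called lower and in 7 of the 103 called higher. Of the strands detected on all 4 arrays, 0.324% had the Sham male array as that one, 0.203% the Sham female array, 0.0405% the TiO2-H male array and 0.0% the TiO2-H female array. For the other probes the shares were 0.0815%, 0.11%, 0.0285% and 0.0244%. The probe of a strand was chosen by its mean over the same arrays, so that 1 high array favours its choice. The other probes were not so chosen.

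A similar pattern was seen for strands detected in Sham alone. On chr16:94775095-94775634 the forward strand read 763 and 104 on the Sham arrays and 8.23 and 6.98 on the TiO2-H arrays, at least 11.6-fold lower, and its other 2 probes were not detected on any array. The reverse strands of chr2:175898018-175930211 (80.7 and 309 against 7.35 and 5.76) and chr7:151085617-151100071 (42.4 and 559 against 13.3 and 5.69) were at least 6.53- and 6.36-fold lower. The forward strands of chr1:193875525-193978800 (82.2 and 287 against 6.90 and 7.35) and chr18:61783548-61783935 (60.9 and 237 against 7.53 and 5.91) were at least 6.35- and 4.97-fold lower. The Sham arrays themselves differed by more than 3-fold in all 5. No other probe of these strands was detected on more than 1 array. Over the chromosome 1 region the reverse strand read 27267, 26254, 26661 and 27691, and a shorter forward entry within it, chr1:193923014-193923346, read 420, 407, 445 and 493, both without a change of that size. A longer forward entry over the chromosome 18 region, chr18:61781410-61788685, was detected on all 4 arrays. It read 89.1, 90.6, 119 and 105, a log2 ratio of 0.20, without a decrease.

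Several probes of a strand give repeated measurements of the same region in the same 4 pools. In 1210 strands with at least 2 probes detected on all 4 arrays, the median SD of the log2 ratio among the 3588 probes was 0.108. The brightest and the next brightest probe had ratios of the same sign in 753 strands (62.2%), and across these strands Pearson's r was 0.182 and Spearman's rho 0.323, as a description of probes that share arrays. Of 32 strands called on all 4 arrays that had a second such probe, 4 had another probe called in the same direction. A call by the brightest probe was thus seldom shared by the other probes of its strand. At least 2 probes were past 1.5-fold in 9 strands. They were past 0.67-fold in 1, the reverse strand of chr8:72663625-72673010, where the brightest probe read 370 and 82.8 against 101 and 102, so that the Sham male array alone was high, and 5 of its 7 probes on all 4 arrays were not past the threshold.

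The reverse strand of chr2:174088550-174109425, picked out after its values were seen, had the most probes past the threshold, 4 of the 4 detected on all arrays. Its brightest probe read 61.8 and 83.4 in Sham and 127 and 122 in TiO2-H, a log2 ratio of 0.68 ± 0.18 (SE), and the other 3 had ratios of 0.61, 0.67 and 0.63. Of the remaining 2 probes one was detected on 1 array, with a ratio of 0.80, and one on none. Its forward strand had a log2 ratio of 0.24 ± 0.08 (SE). A shorter entry within the region on the reverse strand, chr2:174092104-174106704, read 101, 124, 113 and 111 and showed no increase. Transcripts of different length over one place could not be resolved by these probes.

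Probes past 1.5-fold did not always share the sign of the brightest one. On the reverse strands of chr5:100845342-100869667 and chr2:32950586-32984936, each with 2 probes past 1.5-fold, the brightest probe had a log2 ratio of -0.03 and -0.13. Every probe on all 4 arrays had a ratio above 0 on chr16:34559623-34560462 reverse and on chr1:139806645-139809498, chr5:77239012-77271614 and chr12:4234392-4236672 forward. These strands had 2 or 3 such probes. Overlapping entries on the same strand had log2 ratios of 0.02 on chromosome 16, 0.01 on chromosome 1 and 0.26 on chromosome 12. The next strands had at least 4 such probes, all with ratios above 0, and were picked out after their values were seen. On the reverse strand of chr2:155269145-155303251 the brightest probe read 195 and 202 against 293 and 283, a log2 ratio of 0.42 ± 0.05 (SE), and 3 further probes had ratios of 0.61, 0.66 and 0.53. That strand was among the 61, and an overlapping entry on it, chr2:155289631-155292565, was detected on no array. On the reverse strand of chrX:102567595-102589870 the 5 probes had log2 ratios of 0.35 to 0.80, and the brightest read 76.9 and 88.2 against 121 and 140. An overlapping entry on the same strand, chrX:102568332-102587093, had a ratio of 0.64, with signals of 83.7 and 70.2 against 117 and 144. On both of these strands every detected probe had both TiO2-H arrays above both Sham arrays. The forward strand of the X-linked region, by contrast, read 223 and 204 against 227 and 206, with a log2 ratio of -0.10 ± 0.08 (SE).

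**Figure D4:**
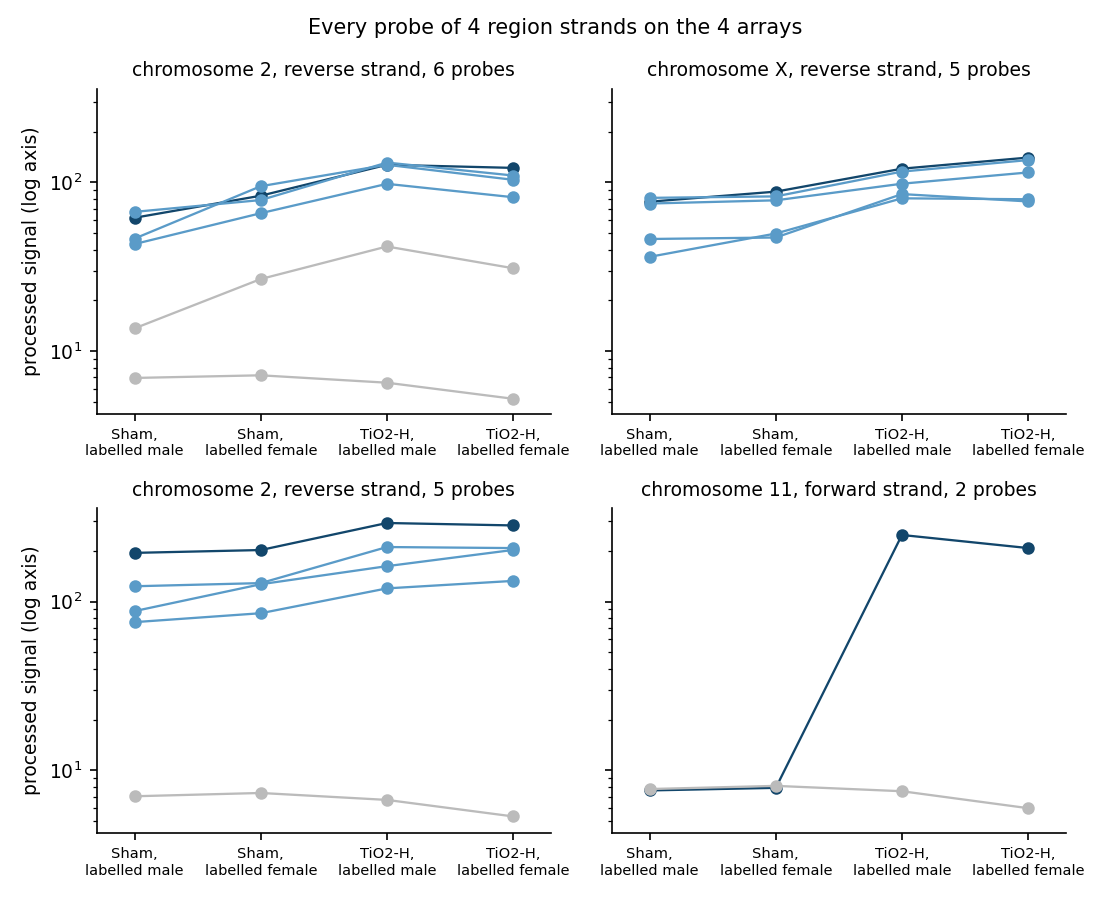
Processed signal (log axis) of every probe of 4 region strands on the 4 arrays, each line joining the values of 1 probe, with the brightest probe in dark blue, other probes detected on all 4 arrays in light blue and the rest in grey. On the first 3 strands all blue probes were higher on both TiO2-H arrays than on both Sham arrays, whereas on the chromosome 11 strand 1 probe went from 7.61 and 7.88 on the Sham arrays to 249 and 208 on the TiO2-H arrays and the other did not exceed 8.10.

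The ratios of the opposite strands of a region were only weakly related, and those of probes on the same strand were not closely related either. For the brightest and next brightest probe of a strand, in another set of strands, Pearson's r was 0.182, Spearman's rho 0.323 and the sign the same in 62.2%. Over the 540 regions with both strands tested, Pearson's r between the forward and reverse log2 ratios was 0.0752 and Spearman's rho 0.127, as a description of values that share arrays, and the signs were the same in 295 (54.6%). The median absolute difference between the strands was 0.182. It was at least 1.5-fold in 52 regions (9.63%), while the ratio of Sham female over Sham male differed that much between strands in 77 (14.3%). In the 427 regions with both strands on all 4 arrays the numbers were 25 (5.85%) and 33 (7.73%). The exposure ratio averages over 2 pairs of arrays. In the single pairs labelled male and female the strands differed that much in 88 (16.3%) and 76 (14.1%) of the 540 regions, and in 36 (8.43%) and 40 (9.37%) of the 427. The single pairs thus ranged around the Sham ratio over the 540 regions and lay above it over the 427. Neither strand was past a threshold in 483 regions, the forward strand alone in 30 and the reverse strand alone in 25.

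**Figure D5:**
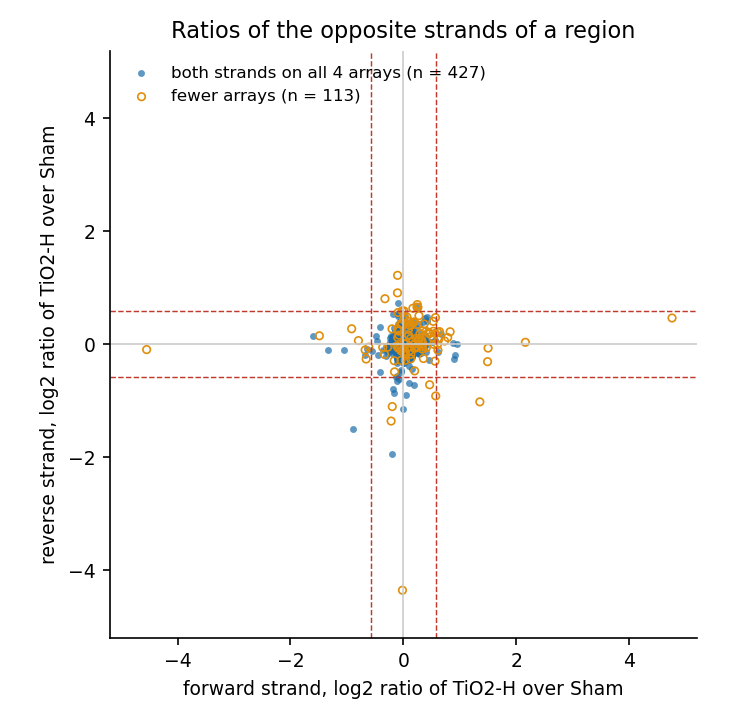
Log2 ratio of TiO2-H over Sham for the reverse strand (vertical axis) against the forward strand (horizontal axis) in 540 regions, with filled points for the 427 regions with both strands detected on all 4 arrays and open points for the other 113. Dashed lines mark 1.5-fold and 0.67-fold. Strands past a threshold lie along the axes, with 1 region past 0.67-fold on both.

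No region had both strands past 1.5-fold and 1, chr10:39383665-39442690, had both at or below 0.67-fold. Its forward strand read 198, 59.4, 54.2 and 74.2 and its reverse strand 624, 73.2, 86.7 and 77.6. On both strands the Sham array labelled male alone was high, and the other 3 arrays overlapped between exposures. The region with opposite calls was chr9:58301467-58323783, where the forward strand read 17.1 and 16.7 in Sham and 45.4 and 48.2 in TiO2-H and the reverse strand 42.4 and 93.2 against 40.7 and 27.7. Neither Sham array detected the forward probe, and its bound was at least 1.39-fold higher.

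The regions whose strands differed most were each set by 1 array. On chr11:82588507-82594501 the forward strand read 66.7, 1241, 121 and 87.1 and the reverse strand 69.8, 75.6, 79.4 and 96.8, so that the log2 ratios differed by -1.76 through the Sham female array. On chr3:40439525-40509975 the forward strand read 274, 256, 231 and 271 and the reverse strand 700, 46.2, 58.7 and 43.8, a difference of 1.75 through the Sham male array. A single Sham array was likewise high on the forward strands of chr8:122712014-122732520 and chr5:123582742-123588202 and the reverse strand of chr13:62580825-62596425, and the TiO2-H male array on the forward strand of chr2:60038543-60046318.

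A difference of at least 1.5-fold between strands in the same direction in both pairs of arrays was found in 3 of the 427 regions, picked out after their values were seen. These were the X-linked region and chr17:79042382-79052046, described above, and chr6:39205913-39248468. On the last, the forward strand read 50.1 and 44.9 in Sham and 86.0 and 71.1 in TiO2-H, a log2 ratio of 0.60 ± 0.12 (SE), and the reverse strand 2002 and 1861 against 1964 and 1833, a ratio of -0.14 ± 0.06 (SE). None of its other forward probes was detected on any array. On chr17:79042382-79052046 the other forward probes were detected on 1 array at most. Both strands of the nearly identical entry chr17:79042382-79051807 were detected on no array, with log2 ratios of 0.34 forward and 1.27 reverse. In the reverse case, a region whose strands moved together, both strands of chr18:36449530-36456800 were among the 61. Its forward strand read 3367 and 3078 against 4392 and 4446 and its reverse strand 3404 and 3123 against 4679 and 4646, which are 1.27- and 1.32-fold higher. Of the other forward probes detected on all 4 arrays, 5 of 6 had ratios above 0, and of the other such reverse probes, 3 of 4.

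At the edge of the thresholds, the forward strands of chr3:52206874-52207385 and chr15:85300937-85301522 had log2 ratios of 0.59 and 0.58, just inside and just outside 1.5-fold, but neither was detected in Sham, and the bounds were at least 1.25- and 1.43-fold higher. The reverse strands of chr2:31001976-31006755 and chr1:59775022-59780348 had -0.58 and -0.57, just inside and just outside 0.67-fold, with SEs of 0.26 and 0.43.

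Noncoding RNAs with a symbol on the same arrays give a comparison. Of a list of 28 annotated long noncoding RNAs, 14 had a tested probe, and none of these was past 1.5-fold or 0.67-fold or had a limma adjusted p under 0.05. Their median log2 ratio was 0.09, beside 0.01 over all probes tested, and 5 of the 14 had an unadjusted p under 0.05, all of them higher, where 16.6% of all probes tested had such a p and 10.9% had it and were higher. Malat1, an abundant RNA of the nucleus, read 530 and 470 in Sham and 740 and 769 in TiO2-H, a log2 ratio of 0.48. Kcnq1ot1, an antisense RNA that acts in imprinting, Dlx1as and Dlx6os1, made beside the Dlx genes of forebrain interneurons, and Tug1 had ratios of 0.42, 0.38, 0.35 and 0.18.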

How the data were processed

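RNA of 4 pools was labelled with one dye and hybridised to a mouse expression array. The authors deposited the scanner output, made with Agilent Feature Extraction 10.10.1.1 on build mm9, and a value table. The deposited intensity is the processed signal, background-subtracted and corrected for spatial trends by that software, with small positive surrogates for spots not above background, and the value table held the same numbers for every non-control spot.

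Members and lists were chosen with earlier results of these data known. Flagged spots were left out. Log2 processed signal minus the 75th percentile of each array was used, and every probe that 2 or more arrays called detected was tested together (31923 probes) in limma 3.58.1 (R 4.3.3), with Benjamini-Hochberg adjustment over all of them and no covariate. The SE is that of limma's moderated fit. The strand was represented by its brightest probe over the 4 arrays. Where a probe was below background on both arrays of an exposure, a fold is a bound, in which each dim array counted with the lowest detected signal or with the probe itself if that was brighter. Levels of different probes were not compared. P-values measure the spread between these pools. The fit was tested on simulated data. The strands named were the 5 highest and 5 lowest ratios among strands on all 4 arrays without overlap of exposures, the 5 lowest p, the 5 brightest, the 3 largest strand differences each way, the 5 brightest with an undetected partner, the 6 largest bounds in one exposure, those nearest the thresholds, and others as marked. Alternatives were another scaling, background correction, filter, probe mean, single pairs and each array left out. The files hold no probe sequences, so none are shown.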

Additional observations from a re-analysis of the deposited data

Results flagged for a closer look

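Among the 2830 tested strands, 30 were past the fold thresholds in opposite directions on the arrays labelled male and on those labelled female. The difference between the pairs was not tested, since each pair holds 1 array per exposure, and the sex labels of the TiO2-H arrays went against the sex-linked RNAs.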

How the results depend on the processing

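The counts past a fold threshold depended most on how dim probes were treated, and the cause of each change was not tested unless the setting itself shows it. Against 103 strands higher and 73 lower, background correction by normexp on the median signals gave 23 and 45, so that most calls were then lower. Its offset of 50, added to every signal, draws the ratios of dim probes toward 0. Quantile normalization gave 77 and 83, no scaling 165 and 60, the filter on all 4 arrays 41 and 37, and no filter 444 and 377. The mean of a strand's probes gave 39 and 39, and a 2-fold threshold 23 and 35. The arrays labelled male alone gave 187 higher. Leaving out each array in turn gave 90 to 156 higher, the most without the TiO2-H array labelled female, and 72 to 99 lower. Strands with both TiO2-H arrays above both Sham arrays numbered 1302 without scaling and 455 for the mean of probes, and those below both 128 without scaling, 1149 without a filter and 344 for the mean of probes. With 1 array less to overlap, the first count ran from 876 to 1329 and the second from 707 to 1258. No scaling moved the median ratio of the strands to 0.12 and gave 1 strand with an adjusted p under 0.05, and the trend and robust options gave 61. With the sex label as a term, which pairs the arrays across exposures, no strand had an adjusted p under 0.05 and 413 had an unadjusted p under 0.05, and with that label exchanged within TiO2-H the counts were 0 and 365, against 425 without the term.

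The median absolute difference between strands was 0.148 with normexp, 0.149 with the filter on all 4 arrays, 0.294 without a filter and 0.169 to 0.1998 with each array left out. Counting every probe, 36.2% in place of 61.4% was detected. A common limit gave 37 and 22 strands detected in one exposure, and with 1 array sufficing for detection 67 regions had neither strand.

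Named ratios that changed sign were those of chr13:62580825-62596425 forward (0.11 without scaling, 0.20 on the arrays labelled male, -0.17 to 0.17 with an array left out, where 0.03 was another value above 0) and reverse (0.19 on the arrays labelled female, -2.46 to 0.16 with an array left out), chr5:123582742-123588202 reverse (0.012 without scaling, 0.13 for the mean of probes) and forward (-2.16 to 0.068 with an array left out), chr8:122712014-122732520 reverse (0.011 without scaling) and forward (0.050 on the arrays labelled male), chr11:82588507-82594501 reverse (-0.12 with normexp) and forward (0.76 on the arrays labelled male, -3.72 to 0.52 with an array left out), chr2:48826955-48827592 forward (-0.012 with normexp) and chr3:40439525-40509975 reverse (-3.89 to 0.0047 with an array left out).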
